A study of Mus musculus with 6 samples.

Results

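The platelet-derived growth factor (PDGF) family was examined in RNA-Seq of mouse craniofacial tissue. Its members here are the 4 ligand genes *Pdgfa*, *Pdgfb*, *Pdgfc* and *Pdgfd* and the 2 receptor genes *Pdgfra* and *Pdgfrb*, taken by gene name from the table of 38553 genes, in which all 6 had an entry. Craniofacial tissue was microdissected at embryonic stage E12.5 from 3 Control embryos (*Rbfox2* flox/flox) and 3 *Rbfox2* mutant embryos (*Pax3* Cre/+:*Rbfox2* flox/flox), and Rbfox2 is an RNA-binding regulator of alternative splicing. All 6 samples therefore carried floxed *Rbfox2*, and only the mutants carried Cre. The Cre is a knock-in at *Pax3* that acts in neural crest cells and also in paraxial mesoderm and somite derivatives, so the mutants also differed from the controls at the *Pax3* locus. The samples are whole dissected tissue from mice of mixed background, in which fewer cells of a type and less RNA per cell cannot be told apart.

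PDGF ligands are secreted dimers that bind and pair receptor tyrosine kinases on neighbouring cells. PDGFRα binds PDGF-AA and PDGF-CC, among other dimers, and marks the cranial mesenchyme, much of it derived from the neural crest, whereas PDGFRβ is best known for holding mural cells (pericytes and vascular smooth muscle) to endothelium that makes PDGF-B. PDGF-A is commonly made by epithelium next to PDGFRα-bearing mesenchyme, and loss of *Pdgfra* or of *Pdgfc* in mice disturbs closure of the face or palate. The comparison of genotypes asks whether the RNA of this family differs when *Rbfox2* is deleted.

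None of the 6 genes differed between the genotypes beyond the spread between samples. The mutant mean lay between 90.8% and 111% of the control mean for every member, and the ranges of the 2 groups overlapped in 6 of 6 genes. Among the 4 members with enough signal to be tested with all genes, 0 had an unadjusted p under 0.05 in limma, beside 1.66% of the 10061 genes tested. The adjusted p was 1.0 for each, and 0.00% of the genes tested passed an adjusted p of 0.05. Groups that did not overlap were found in 5.0% of these genes, and in 6.34% of the wider set of 23063 genes used below for the 2 low ligands.

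The values are FPKM (fragments scaled to transcript length and to the number of mapped fragments), which divide by gene length, so genes can be compared with each other. FPKM summed to between 528123 and 590174 per sample, and the read count behind a value is unknown. *Rbfox2* itself read 58.4 to 65.0 FPKM in controls and 34.3 to 38.1 FPKM in mutants (log2 fold change -0.75, SE 0.079, adjusted p = 0.138), with no overlap. *Pax3*, whose locus holds the Cre, read 8.83 to 11.9 FPKM in controls and 7.59 to 8.62 FPKM in mutants (log2 fold change -0.33, adjusted p = 1.0). The first replicates of both genotypes stood apart from the other 4 samples, at -19.1 and -17.0 on a first principal component that held 54.7% of the variance, with the others between 7.55 and 11.0. The comparison of each member is therefore also given within the first replicates alone and in replicates 2 and 3 alone.

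Rbfox proteins bind the RNA hexamer UGCAUG, which was looked for in the sense strand of 1 coding transcript per gene (GENCODE, GRCm38). Introns, the only gene part in which the paper found the motif enriched among its target genes, were not searched here. The site lies in the coding sequence of *Pdgfa* and *Pdgfrb* and in the 3′ UTR of *Pdgfb* and *Pdgfra*, and these letters are not in the chosen transcripts of *Pdgfc* and *Pdgfd*. Of 9771 tested genes with a coding transcript, 34.4% held the hexamer in the 3′ UTR. Among 3′ UTRs within 20% of the same length, the share was 36.4% for the length of *Pdgfb*. It was 65.6% for the longer 3′ UTR of *Pdgfra*, so neither match is rare. No such share was taken for coding sequences, so how common the matches in *Pdgfa* and *Pdgfrb* are is not known here. The windows below, written as DNA 5′ to 3′ with the hexamer in capitals, are shown because the deleted gene encodes a protein that binds these letters.
*Pdgfa* coding exon 5 of 6, chr5:138979190-138979195, minus strand: acacctggagtgTGCATGtgcgacctccaa
*Pdgfb* 3′ UTR, 331 bases after the stop codon, chr15:79996945-79996950, minus strand: cccgaggacctcTGCATGtcctgcctggtt
*Pdgfra* 3′ UTR, 2250 bases after the stop codon, chr5:75197351-75197356, plus strand: cgctttgggcctTGCATGacaccatgaagt

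Receptors were the most abundant members. *Pdgfra* (ENSMUSG00000029231, chr5:75152292-75198215, plus strand), the receptor of the cranial mesenchyme, read 37.3, 70.8 and 59.6 FPKM in Control replicates 1, 2 and 3 and 47.7, 52.2 and 54.5 FPKM in *Rbfox2* mutant replicates 1, 2 and 3. Control replicate 1 was the lowest of the 6 samples and control replicate 2 the highest, with all 3 mutants between them. The control mean was 55.9 ± 17.0 and the mutant mean 51.5 ± 3.46 FPKM (SD, n = 3 each), a log2 fold change of -0.07 (SE 0.22, 95% interval -0.58 to 0.44, adjusted p = 1.0 in limma). On the linear scale of FPKM + 1, that interval runs from 66.8% to 136% of the control level, and differences inside these bounds are not excluded by these samples.

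The spread of *Pdgfra* lay in the controls. Its SD on the log2 scale was 0.47 in controls, above that of 97.5% of the genes tested, and 0.096 in mutants, above that of 38.3%. Over all genes tested the control SD was the larger in 49.9%. The direction of the genotype difference turned with the sample set: the mutant was higher between the first replicates (log2 difference 0.35) and lower at replicate 2 (-0.43) and replicate 3 (-0.13). With replicates 2 and 3 only, the log2 fold change was -0.28 (SE 0.091, unadjusted p = 0.0203, adjusted p = 0.412 in limma), and 11.0% of all genes passed an unadjusted p of 0.05 in that fit. Without control replicate 1 the log2 fold change was -0.33 (SE 0.11, unadjusted p = 0.0196, adjusted p = 0.734), where 6.45% of all genes passed an unadjusted p of 0.05, and without control replicate 2 it was 0.12.

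*Pdgfrb* (ENSMUSG00000024620), the receptor best known from mural cells, read 24.4, 36.5 and 31.0 FPKM in controls and 28.6, 32.2 and 31.4 FPKM in mutants. As for *Pdgfra*, control replicate 1 was the lowest and control replicate 2 the highest, and the mutants lay between. The means were 30.7 ± 6.06 and 30.8 ± 1.87 FPKM (SD, n = 3 each), and the log2 fold change was 0.02 (SE 0.14, 95% interval -0.32 to 0.36, adjusted p = 1.0). It was 0.22 between the first replicates and -0.08 with replicates 2 and 3 only, so its direction turned as well.

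**Figure D1:**
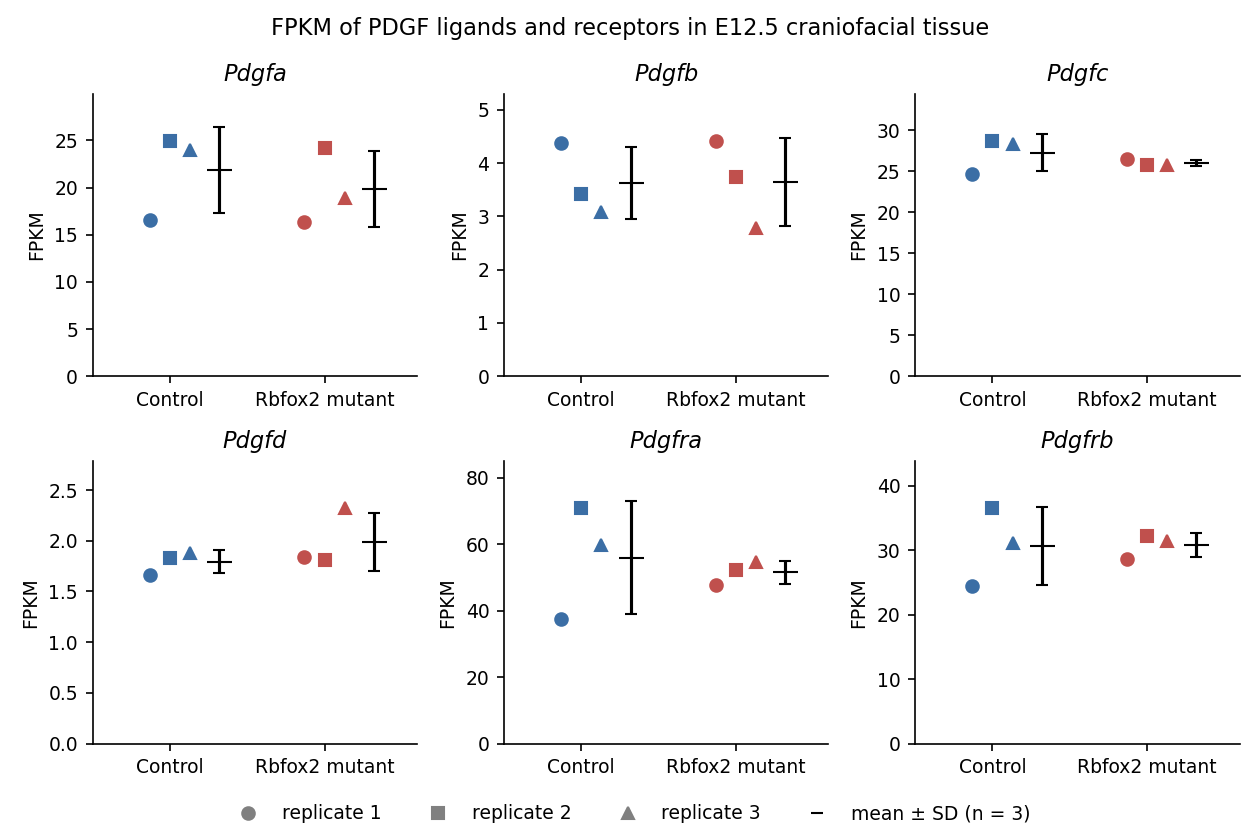
FPKM of the 6 PDGF genes, 1 panel each, in the 3 Control and the 3 *Rbfox2* mutant samples, with every sample drawn and the group mean and SD marked. Both receptors show a wide control group, from 37.3 to 70.8 FPKM for *Pdgfra*, around a narrow mutant group, and in no panel are the groups separate.

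*Pdgfc* was the most abundant ligand and the steadiest member. It encodes PDGF-C, a ligand of PDGFRα that is secreted in a latent form and cut by proteases. *Pdgfc* (ENSMUSG00000028019, chr3:81036416-81214040, plus strand) read 24.6, 28.7 and 28.3 FPKM in controls and 26.4, 25.8 and 25.7 FPKM in mutants. The mutants fell inside the control range, at 26.0 ± 0.405 against 27.2 ± 2.27 FPKM (SD, n = 3 each). The log2 fold change was -0.06 (SE 0.083, 95% interval -0.26 to 0.13, adjusted p = 1.0). Of the 4 tested members it had the narrowest interval, from 83.7% to 109.8% of the control level. The difference was 0.10 between the first replicates and -0.14 (SE 0.063) with replicates 2 and 3 only.

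*Pdgfa* (ENSMUSG00000025856, chr5:138976014-138997370, minus strand), which encodes PDGF-A, also a ligand of PDGFRα, read 16.6, 24.98 and 23.96 FPKM in controls and 16.3, 24.2 and 18.9 FPKM in mutants. The first replicate was the lowest sample of each genotype and replicate 2 the highest. The means were 21.8 ± 4.58 and 19.8 ± 4.03 FPKM (SD, n = 3 each), and the log2 fold change was -0.13 (SE 0.19, 95% interval -0.58 to 0.32, adjusted p = 1.0). The mutant value was the lower of each same-numbered pair, by -0.02, -0.04 and -0.32 on the log2 scale, and replicate 3 gave most of the mean difference. With replicates 2 and 3 only it was -0.18 (SE 0.12). The antisense gene *6330403L08Rik*, which overlaps *Pdgfa*, stood at 0.981 to 1.53 FPKM, and the strand setting of the authors' counting is not given in the sources used here.

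*Pdgfb* and *Pdgfd* were low and did not pass the filter of more than 5 FPKM in all samples of a group, so they were read from a fit over 23063 genes. *Pdgfb* (ENSMUSG00000000489, chr15:79995874-80014977, minus strand), a ligand of both receptors that endothelium makes, read 4.38, 3.43 and 3.08 FPKM in controls and 4.42, 3.75 and 2.78 FPKM in mutants. Its highest samples were the first replicates of both genotypes, and the means were 3.63 ± 0.672 and 3.65 ± 0.824 FPKM (SD, n = 3 each). The log2 fold change was 0.00050 (SE 0.18, 95% interval -0.44 to 0.44, adjusted p = 1.0), with 0.01 for the first replicates and -0.0049 for replicates 2 and 3. *Pdgfd* (ENSMUSG00000032006, chr9:6168584-6378850, plus strand), which encodes a further ligand of PDGFRβ, read 1.66, 1.83 and 1.88 FPKM in controls and 1.84, 1.81 and 2.32 FPKM in mutants. Mutant replicate 3 was its highest sample, and the other 2 mutants lay inside the control range. The means were 1.79 ± 0.115 and 1.99 ± 0.287 FPKM (SD, n = 3 each), and the log2 fold change was 0.10 (SE 0.11, 95% interval -0.17 to 0.36, adjusted p = 1.0), with 0.10 for the first replicates and the same for replicates 2 and 3. In that fit 2.87% of genes had an unadjusted p under 0.05, and neither ligand did.

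An exact two-sided permutation test on the FPKM of each gene gave p from 0.40 (*Pdgfc*) to 1.0 (*Pdgfrb*), and with 3 samples a group it cannot go below 0.10. With the replicate number as a block in limma, 0 of the 4 tested members had an unadjusted p under 0.05, beside 6.0% of all genes tested.

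**Figure D2:**
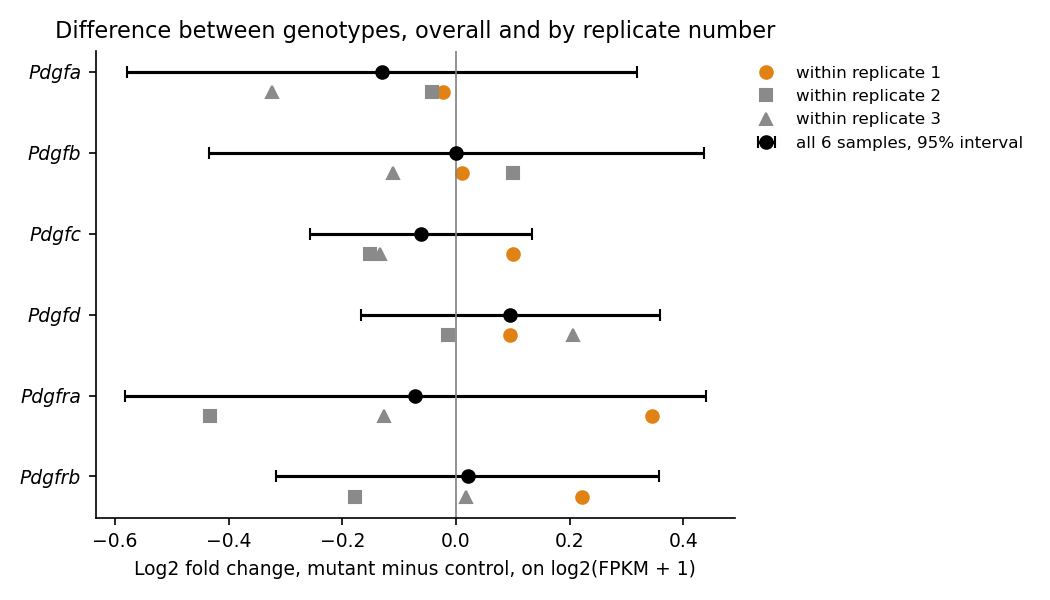
Log2 fold change, mutant minus control, of log2(FPKM + 1) for the 6 members over all 6 samples (black, with its 95% interval), and the differences between same-numbered samples (orange circle, replicate 1; grey square, replicate 2; grey triangle, replicate 3). Every interval spans 0, and for *Pdgfra* the first replicates lie at 0.35 while replicates 2 and 3 lie at -0.43 and -0.13.

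The members moved differently between the first replicates and the other samples. *Pdgfa* was lower in the first replicate of both genotypes, by -0.53 (controls) and -0.37 (mutants) on the log2 scale, and *Pdgfb* was higher in both, by 0.34 and 0.36. For *Pdgfra* the shift was -0.78 in controls, lower than in all but 1.16% of the genes tested, and -0.16 in mutants, with 33.6% of genes below it. *Pdgfrb* had shifts of -0.45 and -0.15. What sets the first replicates apart is not given in the labels, and its part in these values was not tested.

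The order of the levels was the same in 5 of the 6 samples: *Pdgfra*, *Pdgfrb*, *Pdgfc*, *Pdgfa*, *Pdgfb* and *Pdgfd*. *Pdgfra* exceeded *Pdgfrb* in 6 of 6 samples, by 1.53 to 1.94 times. *Pdgfrb* exceeded *Pdgfc* in 5 of 6, by 0.993 to 1.27 times, and these neighbours overlapped in range, as did *Pdgfc* and *Pdgfa*, at 1.06 to 1.62 times. The ranges of *Pdgfa* and *Pdgfb* did not overlap, with *Pdgfa* 3.69 to 7.77 times higher, nor did those of *Pdgfb* and *Pdgfd*, at 1.199 to 2.63 times.

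By level, *Pdgfc* and *Pdgfa* made up most of the ligand RNA. *Pdgfc* held 52.1%, 48.7% and 49.5% of the summed ligand FPKM in controls and 53.9%, 46.4% and 51.7% in mutants, and *Pdgfa* held 35.1%, 42.4% and 41.8% against 33.3%, 43.6% and 38.0%. *Pdgfb* held 5.38% to 9.27% and *Pdgfd* 3.11% to 4.66% over the 6 samples. The shares overlapped between genotypes for all 4 ligands. The summed ligand FPKM was 47.2, 58.9 and 57.3 in controls and 49.0, 55.5 and 49.8 in mutants.

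The ratio of *Pdgfra* to *Pdgfrb* was 1.53, 1.94 and 1.92 in controls and 1.67, 1.62 and 1.73 in mutants. Controls 2 and 3 had higher ratios than all mutants, and control 1 a lower one. The ratio of summed receptor to summed ligand FPKM was 1.31, 1.82 and 1.58 in controls and 1.56, 1.52 and 1.73 in mutants, again with overlap.

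**Figure D3:**
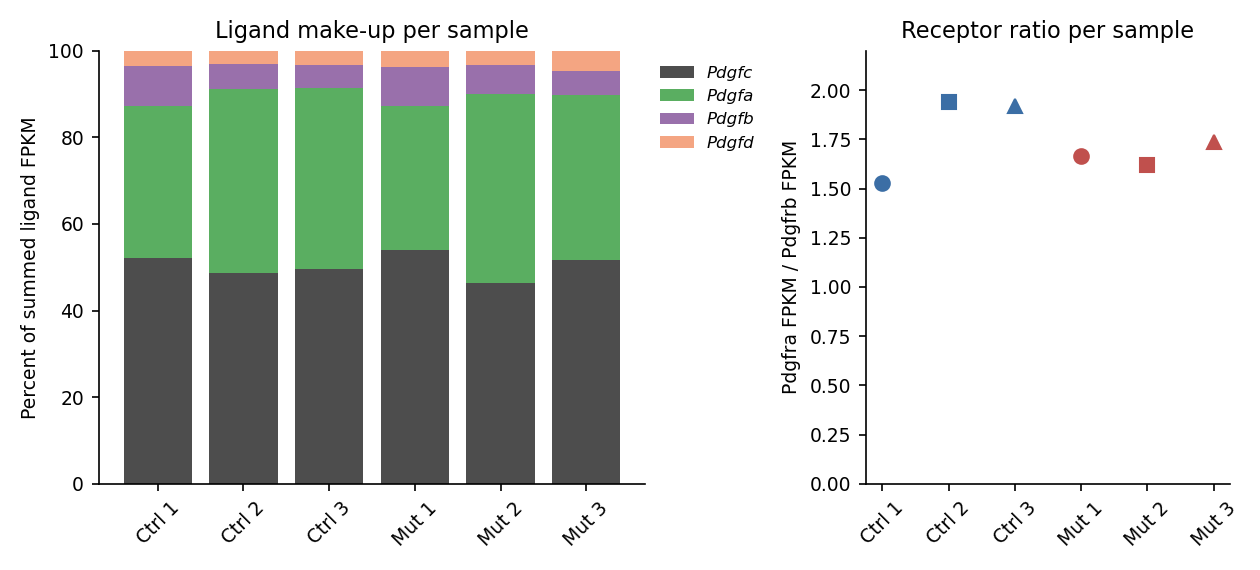
Share of the summed ligand FPKM held by each of the 4 ligand genes, and ratio of *Pdgfra* to *Pdgfrb* FPKM, in each of the 6 samples. *Pdgfc* and *Pdgfa* hold most ligand FPKM in every sample, and the first replicates of both genotypes have the largest *Pdgfb* share, at 9.27% and 9.02%.

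Because these genes are best known from different cells, markers of those cells were read beside them. The labelled tissue was checked in this way: 12 of 12 cranial mesenchyme markers and 10 of 10 endothelial markers passed the filter, beside 9 of 10 epithelial and 6 of 12 mural markers. The cranial mesenchyme markers summed to 543, 561 and 549 FPKM in controls and 585, 483 and 535 FPKM in mutants, with 3 of 12 higher and 9 lower in mutants and a median log2 fold change of -0.05. *Pdgfra* per 100 FPKM of that sum was 6.88, 12.6 and 10.9 FPKM in controls and 8.15, 10.8 and 10.2 FPKM in mutants, so control replicate 1 remained the lowest sample and control replicate 2 the highest.

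The mural list summed to 141, 167 and 149 FPKM in controls and 127, 149 and 124 FPKM in mutants, with 3 of 6 tested markers higher. Its markers had unlike levels, from a mean of 0.031 FPKM (*Higd1b*) to 50.1 FPKM (*Acta2*) over all samples. The cells that held *Pdgfrb* were not identified. *Pdgfrb* per 100 FPKM of mural markers was 17.3, 21.9 and 20.8 FPKM in controls and 22.5, 21.6 and 25.4 FPKM in mutants, with overlap. The endothelial list summed to 163 to 192 FPKM in controls and 164 to 179 FPKM in mutants. *Pdgfb* was highest in the first replicates, where the endothelial sum was not, and per 100 FPKM of endothelial markers it was 2.68, 1.79 and 1.77 FPKM in controls and 2.70, 2.10 and 1.70 FPKM in mutants.

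The epithelial markers varied with *Pdgfa* across the samples, at 144, 259.9 and 221 FPKM in controls and 148, 204 and 158 FPKM in mutants, with 8 of 9 tested markers lower in mutants. Per 100 FPKM of epithelial markers *Pdgfa* was 9.61 to 11.5 FPKM in controls and 11.1 to 12.01 FPKM in mutants, with overlap. Being lowest in the first replicates was not particular to the epithelial list. The skeletal muscle sum was lowest there too, at 160 FPKM in control replicate 1 and 152 FPKM in mutant replicate 1. The part of epithelium in the *Pdgfa* values was not tested.

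Other cell types moved with genotype or sample. Neuronal markers summed to 838 to 901 FPKM in controls and 973 to 1075 FPKM in mutants without overlap, with 9 of 10 higher, 4 at an unadjusted p under 0.05 (beside 1.66% of all genes tested) and 5 whose groups did not overlap (beside 5.0%). Among tested markers of the other lists, the endothelial *Egfl7* (unadjusted p = 0.0457, adjusted p = 1.0 in limma) and the muscle *Myod1* (unadjusted p = 0.0605, adjusted p = 1.0) were lower in all mutants than in all controls. Their log2 fold changes were -0.20 and -0.33. The macrophage marker *Cd68*, under the filter, was also lower in all mutants (2.37 to 3.01 FPKM) than in all controls (3.19 to 4.46 FPKM). Of the 2 tested macrophage markers 1 was higher and 1 lower in mutants. *Egfl7*, *Myod1* and *Cd68* were named after their values were seen. The endothelial list went both ways, with 6 of 10 markers higher and 4 lower in mutants and a median log2 fold change of 0.0039. Erythroid markers were higher in mutants in 8 of 8 tested, with sums of 5541 to 10808 FPKM in controls and 7478 to 11300 FPKM in mutants, and skeletal muscle markers were lower in 6 of 6, with sums of 160 to 404 FPKM against 152 to 232 FPKM. Neural progenitor markers were higher in 9 of 10, at 349 to 584 FPKM against 476 to 624 FPKM, but their direction turned with the sample set. Between the first replicates all 10 were lower in the mutant, with sums of 584 FPKM in the control and 507 FPKM in the mutant. With replicates 2 and 3 only, all 10 were higher in mutants. Neural crest glia stood at 32.9 to 43.3 FPKM and macrophages at 35.4 to 44.9 FPKM over all samples. Y-linked genes were at 55.5 FPKM or above in mutant replicates 1 and 2 and at 0.217 FPKM or below in the other 4 samples. These 4 include every control, so sex was not balanced between the genotypes. The part of these cells in the PDGF values was not tested. Sex entered only as a Y-linked covariate in an alternative fit, given below.

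**Figure D4:**
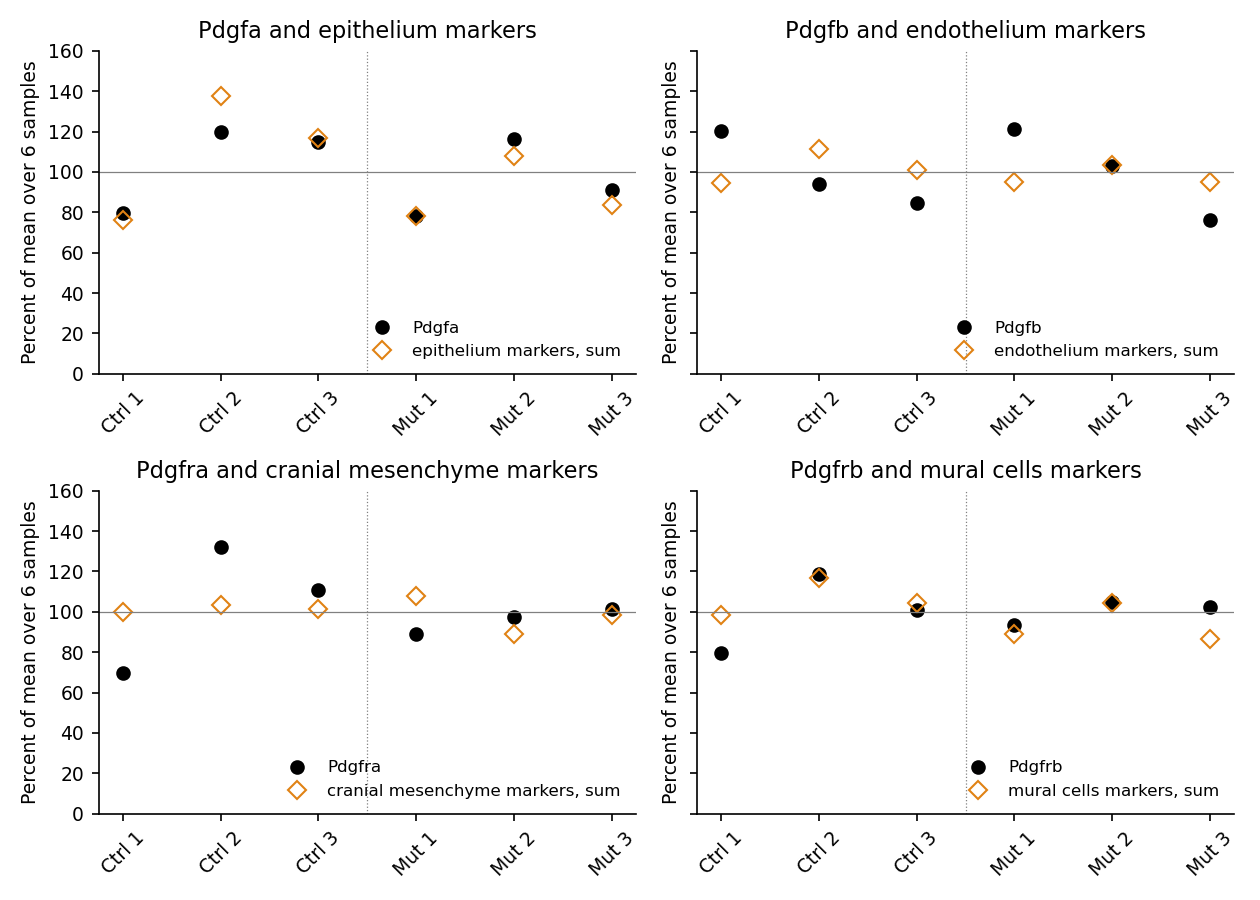
FPKM of 4 PDGF genes (black circles) and summed FPKM of the markers of the cell type each is best known for (orange diamonds), each as a percent of its mean over the 6 samples, for the 3 Control (Ctrl) and 3 *Rbfox2* mutant (Mut) samples. *Pdgfa* and the epithelial sum are both lowest in the first replicates, whereas *Pdgfra* spans 37.3 to 70.8 FPKM over mesenchyme sums of 483 to 585 FPKM.

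The rest of the pathway was read from 6 lists with 76 genes, of which 52 passed the filter. Of these 17 were higher and 35 lower in mutants, with a median log2 fold change of -0.04 against 0.01 over all genes tested. With an unadjusted p under 0.05 there was 1 gene (1.92%, beside 1.66% of all genes tested), and 0 passed an adjusted p of 0.05. The groups did not overlap for 4 genes (7.69%, beside 5.0% of all genes tested). The direction turned with the sample set: 39 of the 52 were higher in the mutant between the first replicates, and 38 were lower with replicates 2 and 3 only. The same counts were not made over all genes tested, so this turn is not shown to be particular to the listed genes.

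The first list held genes that act on the ligands. *Sparc*, a matrix protein that can bind PDGF, was at 278 ± 24.7 FPKM in controls and 266 ± 36.1 FPKM in mutants. *Thbs1* (thrombospondin 1) was at 39.5 ± 7.86 and 37.6 ± 1.78 FPKM, and *Lrp1*, an endocytic receptor that associates with PDGFRβ, at 27.9 ± 9.77 and 22.996 ± 1.75 FPKM. The *Lrp1* difference turned with the samples, from a log2 value of 0.29 in the first replicates to -0.46 in replicates 2 and 3. In this list 1 of 7 tested genes was higher and 6 lower, and none passed an unadjusted p of 0.05.

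Downstream of the receptors, 7 of 17 tested signalling genes were higher and 10 lower. The adaptors *Crk* and *Grb2* stood at 72.1 ± 1.90 and 65.4 ± 15.6 FPKM in controls and at 70.7 ± 1.59 and 60.9 ± 9.26 FPKM in mutants. *Plcg1*, the phospholipase that docks on the receptors, was at 53.1 ± 3.08 and 50.4 ± 2.82 FPKM. Among genes of feedback and turnover, 3 of 12 were higher and 9 lower. The receptor adaptor *Grb10* was at 304 ± 46.3 and 295 ± 18.2 FPKM, the phosphatase *Ptpn2* at 31.2 ± 2.91 and 30.5 ± 3.82 FPKM, and the ERK phosphatase *Dusp6* at 28.8 ± 0.233 and 28.0 ± 3.90 FPKM.

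The list of immediate early and SRF-linked genes also held the regulators *Srf*, *Mkl1*, *Mkl2* and *Elk1*. Its tested genes were higher in 2 of 10 and lower in 8 of 10, with a median log2 fold change of -0.09 and none past an unadjusted p of 0.05. The growth factor-induced genes *Fos*, *Fosb*, *Fosl1*, *Fosl2*, *Junb*, *Egr1* and *Egr2* did not pass the filter. *Jun* was at 34.6 ± 5.18 and 34.1 ± 5.72 FPKM in controls and mutants, *Ier2* at 25.7 ± 3.79 and 27.6 ± 3.52 FPKM, and *Myc* at 19.3 ± 1.99 and 16.9 ± 1.65 FPKM. The adjusted p was 1.0 for every tested pathway gene named so far (SD, n = 3 each).

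Among the nearest relatives of the PDGF receptors, *Kit* stood at 7.24 ± 0.512 and 7.85 ± 0.728 FPKM in controls and mutants and the VEGF receptor *Kdr* at 14.4 ± 1.57 and 14.5 ± 0.987 FPKM (adjusted p = 1.0 for both). *Csf1r*, at 5.10 ± 0.611 and 5.38 ± 0.814 FPKM, did not pass the filter. Of their ligands, *Vegfb* was at 32.9 ± 5.05 and 31.0 ± 4.94 FPKM and *Kitl* at 8.05 ± 0.134 and 8.71 ± 0.964 FPKM. *Vegfa*, the principal endothelial growth factor, read 33.5, 27.4 and 25.3 FPKM in controls and 27.0, 16.0 and 19.6 FPKM in mutants. Only mutant replicate 1 lay within the control range, and the log2 fold change was -0.46 (SE 0.19, unadjusted p = 0.0447, adjusted p = 1.0 in limma). The first replicates alone differed by -0.30, and replicates 2 and 3 gave -0.54.

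The 4 tested pathway genes whose groups did not overlap, chosen after their values were seen, had small differences. The adaptor *Nck2*, the phosphatase *Ptpn1* and the SRF partner *Elk1* were higher in mutants, with log2 fold changes of 0.08, 0.11 and 0.06, and the immediate early matricellular gene *Cyr61* was lower at -0.10. Of the 24 pathway genes under the filter, 15 could be fitted with a filter of 1 FPKM, and 1 had an unadjusted p under 0.05, beside 2.27% of the genes in that fit. This was *Pdgfrl*, a gene for a PDGF receptor-like protein, also named after its values were seen. It read 4.78, 6.12 and 6.47 FPKM in controls and 3.92, 4.77 and 4.62 FPKM in mutants, which put all 3 mutants below all 3 controls. Its log2 fold change was -0.32 (SE 0.13, unadjusted p = 0.0405, adjusted p = 1.0 in limma), at -0.23 between the first replicates and -0.36 with replicates 2 and 3 only. The groups did not overlap for 2 of the 15, *Pdgfrl* and *Pik3cb*. This share was not taken over all genes in that fit. It was 5.0% of genes over 5 FPKM in a group and 6.34% of genes above 0 in a sample. *Pik3cb*, a catalytic subunit of PI3-kinase, went the other way at 3.19 ± 0.251 FPKM in controls and 3.76 ± 0.121 FPKM in mutants (SD, n = 3 each). Its log2 fold change was 0.19, with adjusted p = 1.0 in limma. Of the 9 genes outside that fit, all low, *Flt3* and *Il34* (higher in mutants) and *Figf* (lower) also had groups without overlap.

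**Figure D5:**
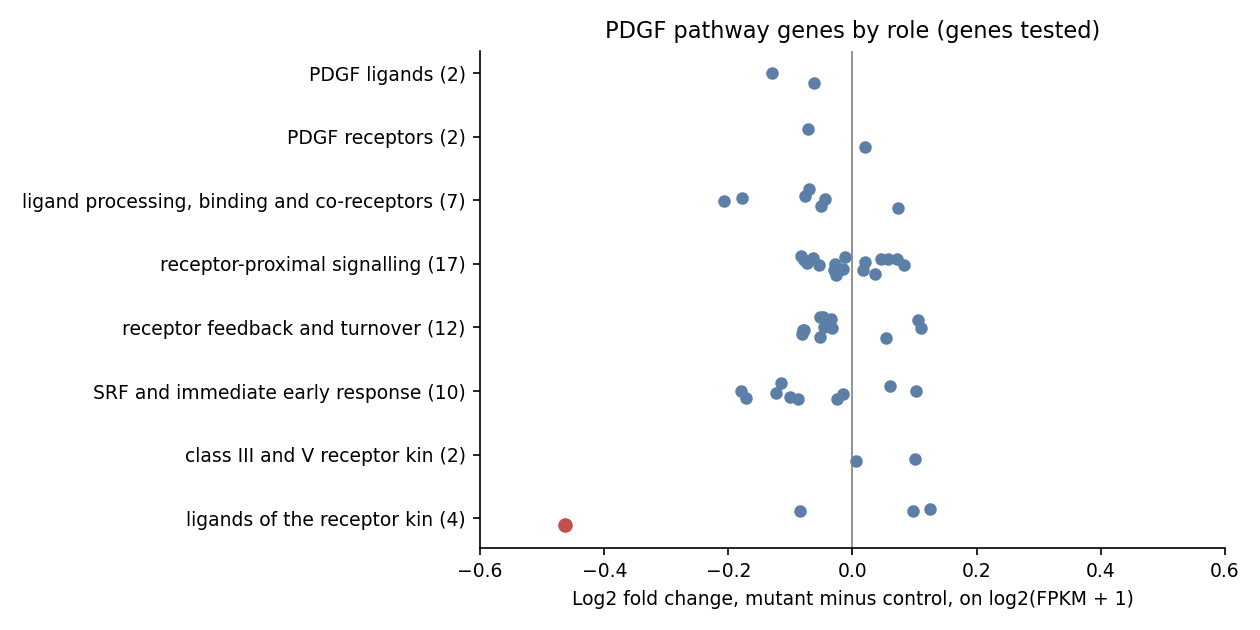
Log2 fold change, mutant minus control, of the 4 tested members (upper 2 rows) and the 52 tested pathway genes by list, with the number tested in brackets, 1 point per gene and the single gene with an unadjusted p under 0.05, *Vegfa*, in red. Of the 52, 17 lie above 0 and 35 below, and *Vegfa* is at -0.46.

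Each tested member was compared with all genes tested by the root-mean-square difference of the centred log2(FPKM + 1) values over the 6 samples. For *Pdgfra* the nearest genes were *Rrbp1* (0.044) and *Ash1l* (0.049), against a median of 0.28 over all genes. *Rrbp1* read 44.2, 85.4 and 72.5 FPKM in controls and 53.5, 64.2 and 63.5 FPKM in mutants, the same wide control group. For *Pdgfrb* they were *Cdh5* (0.020), which encodes the endothelial cadherin, *Ankrd50* (0.020) and *Smarca1* (0.022), against a median of 0.18. *Cdh5* read 19.6, 29.7 and 25.6 FPKM in controls and 22.6, 26.1 and 25.7 FPKM in mutants. For *Pdgfa* the nearest were *Sncaip* (0.047), *Bend5* (0.048) and *Trim41* (0.057), against a median of 0.25. For *Pdgfc* they were *Trmt2b* (0.014), *Pi4k2a* (0.015) and *Tbck* (0.016), against a median of 0.13.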

How the data were processed

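Craniofacial RNA of 3 Control and 3 *Rbfox2* mutant embryos was profiled by the authors from poly(A)+ libraries made with a stranded kit. Per the submitters' processing notes, FastQC 0.11.4, STAR, Cuffdiff and GRCm38 were used. Other versions, the strand setting and the step that made the gene table are not given in the sources used here. The deposited values are FPKM per gene and sample, identical in the single-sample tables and the table of all samples (0 differences). Litters are not tied to samples, so p-values measure the spread between these samples.

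Genes with FPKM over 5 in all samples of either group were kept (10061), and log2(FPKM + 1) was tested between genotypes in limma 3.58.1 (R 4.3.3, mean-variance trend on, two-sided), adjusted by Benjamini-Hochberg over all genes tested. Fold changes on this scale understate changes of low genes. *Pdgfb* and *Pdgfd* were taken from the same fit over the 23063 genes above 0 in at least 1 sample. The fit was tested on simulated data with the same spread for every gene and no shift of the first replicates, unlike the data here. Whole reads could not be recovered from the FPKM, so no count test was run. Same-numbered samples deviated together (correlations of 0.64, 0.26 and 0.51 across genes for numbers 1, 2 and 3), and the replicate number was also used as a block. Unlike numbers 2 and 3 correlated at 0.23 and 0.40, so the values set the first replicates apart and do not tell number 2 from number 3.

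Members and gene lists were chosen with earlier results of these data known. From each pathway list the 3 genes with the highest mean FPKM were named, with any past an adjusted p of 0.05, and for each tested member the 3 genes with the nearest pattern, of which 1 is not reported here. *Vegfa* was among these. Transcripts and coordinates are from the GENCODE annotation of GRCm38. Alternatives were scaling, pseudocount, filter, block, covariates and leaving out samples.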

Additional observations from a re-analysis of the deposited data

How the results depend on the processing

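Of 94 alternative values of the 6 log2 fold changes, 82 kept direction and call, 12 turned direction and 0 passed an adjusted p of 0.05 (smallest 0.412). *Pdgfa*, *Pdgfc* and *Pdgfd* did not turn in any. *Pdgfb* (0.00050) was -0.0015 with a pseudocount of 0.1, -0.29 with Y-linked expression as a covariate, -0.0049 with replicates 2 and 3 only and -0.12 to 0.14 with 1 sample left out. *Pdgfra* was 0.0096 with the Y-linked covariate and -0.33 to 0.12 with 1 sample left out, and *Pdgfrb* was -0.080 with replicates 2 and 3 only and -0.13 to 0.15 with 1 sample left out. The count of members with an unadjusted p under 0.05 (0) was 1, *Pdgfra*, with replicates 2 and 3 only, and 0 to 1 with 1 sample left out.

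The count of all genes with an unadjusted p under 0.05 (167) was 604 with the replicate block, 611 with a term for the first replicates, 1103 with replicates 2 and 3 only, 304 with a filter of 1 FPKM, 663 with no filter, and 78 (without control replicate 2) to 649 (without control replicate 1) with 1 sample left out. With an adjusted p under 0.05 the count (0) was 3 with the term for the first replicates, 4 with replicates 2 and 3 only and 0 to 1 with 1 sample left out. The cause was not tested. The replicate block changed no call for a member. The read count behind each FPKM value is unknown, so no counting error was given for the low ligands *Pdgfb* and *Pdgfd*.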
